A study of Mus musculus with 2 samples.

Results

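Genes of steroid hormone synthesis were followed through the cell types of the mouse ovary at postnatal day 2. They were *Scarb1*, *Star*, *Cyp11a1*, *Fdx1*, *Hsd3b1*, *Cyp17a1*, *Hsd17b1*, *Hsd17b7*, *Cyp19a1* and *Srd5a1*, 10 of the 31057 genes counted. They were chosen by name, with no threshold on their values, but with earlier results of these data known. Whole ovaries of CD1 mice were dissociated and captured as 2 droplet libraries, each from 6 ovaries of 3 pups of one mother. Replication is over libraries (n = 2), never over cells. The libraries held 4094 and 4847 cells with 54471790 and 59074480 unique molecular identifiers (UMIs, each standing for one captured transcript molecule), and they shared 21 cell barcodes.

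Steroid hormones are made from cholesterol in a fixed order of steps. SCARB1 takes up cholesterol esters, STAR carries cholesterol into the mitochondrion, and CYP11A1 cuts its side chain to give pregnenolone, with electrons from ferredoxin (FDX1). HSD3B1 and CYP17A1 then lead to progesterone and androgens, HSD17B enzymes act on the 17-position, CYP19A1 (aromatase) makes oestrogens, and SRD5A1 reduces androgens and progestins. In the adult ovary these steps are divided between theca, granulosa and luteal cells. At postnatal day 2 most oocytes lie in primordial follicles, and some granulosa cells already surround growing oocytes.

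Cells were assigned by UMIs of marker genes that included none of the members. The granulosa gate (*Foxl2*, *Fst*, *Wnt6*) took 1502 cells of replicate 1 and 456 of replicate 2. The interstitial gate (*Col1a2*, *Dcn*) took 1359 and 2375 cells, the germ cell gate (*Ddx4*, *Dazl*, *Ooep*) 202 and 419, the mesothelial gate (*Upk3b*) 59 and 106, and the immune gate (*Ptprc*) 16 and 32. Cells that passed several gates (128 and 288) or none (370 and 695) were kept apart. Germ cells were deep, with medians of 79492.5 and 56162 UMIs per cell, against 10135 and 11940.5 in granulosa, 6551 and 5076 in interstitial, 9728 and 8042.5 in mesothelial and 8834.5 and 6581.5 in immune cells. Shares of cells with a UMI were therefore also computed with every cell thinned to 2000 UMIs. The gates were not clean against their markers: *Foxl2* was also found in 45.6% and 51.3% of interstitial-gated cells. *C1qa*, a macrophage gene, was found in 62.5% and 59.4% of immune-gated cells. Transcripts also appeared outside their own type: the oocyte gene *Ooep* was found in 12.2% and 27.0% of granulosa-gated cells, at 11.7 and 28.4 CPM against 2814 and 3568 in germ cells. *Dcn* was found in 41.1% and 45.8% of germ-gated cells. The part of such carry-over in the lowest member levels was not tested.

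Levels are given as UMIs per 1e6 UMIs of the cell type (counts per 1e6, CPM), with counting intervals only. Each cell type was compared with the other gated cells of the same libraries, with higher or lower meaning a change of more than 2-fold at an adjusted p under 0.05. The reference is a sum of UMIs, so types with many UMIs weigh most in it. For granulosa cells its largest part is germ cells, with 15593447 and 20910582 UMIs, against 9989126 and 15143604 of interstitial cells. A call in granulosa cells is therefore in large part a comparison with germ cells. *Hsd3b1*, *Hsd17b1*, *Cyp19a1* and *Cyp17a1* were called higher in granulosa-gated cells, 4 of the 10 members, where 19.8% of all genes tested were called higher. Of these, *Hsd17b1*, *Cyp19a1* and *Cyp17a1* passed the filter on low counts through the granulosa cells alone. *Hsd3b1* reached the limit of that filter in the reference sum of replicate 1 (21 UMIs) but not in that of replicate 2 (13 UMIs). The filter asks for 2 sums at its limit, so all 4 could enter the test only by being high in granulosa cells. Their levels are given below as a description with no p. *Star* was higher in mesothelial-gated cells, the only member there, against 8.1% of genes. In interstitial-, immune- and germ-gated cells 0 of the 10 members were called higher, where 18.6%, 7.63% and 29.2% of genes were. At an unadjusted p under 0.05, 3, 1 and 7 members differed in either direction in those types. At the same cut 9470 of 15392, 4838 of 14933 and 12213 of 15561 genes tested differed there. The number of members that passed the filter on low counts and were tested was 9 in granulosa and germ, 8 in interstitial, and 7 in mesothelial and immune cells.

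**Figure D1:**
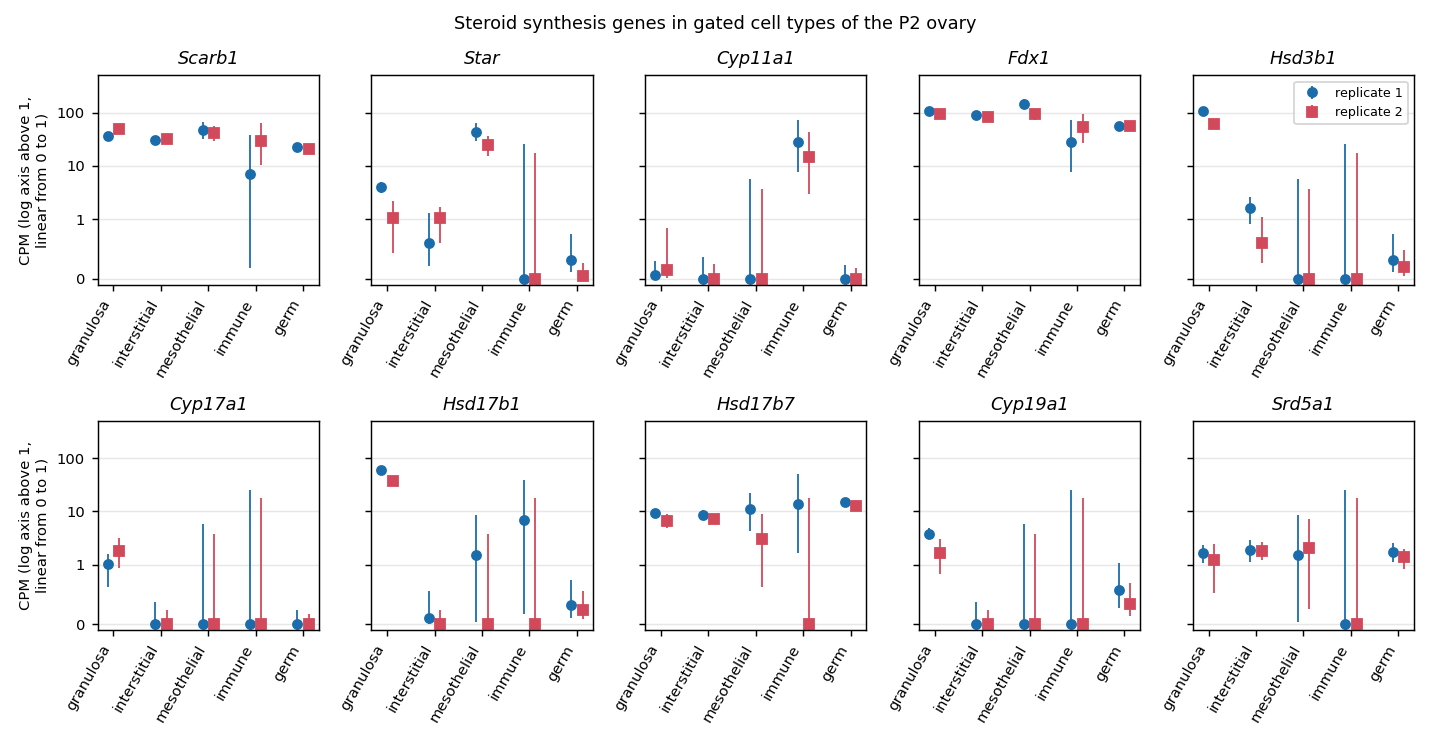
Level of each member in the 5 gated cell types, in CPM (vertical axis, logarithmic above 1 and linear from 0 to 1), with a point for each library and bars for the exact 95% Poisson interval. *Hsd3b1* and *Hsd17b1* stand high in granulosa cells of both libraries, *Star* in mesothelial cells, and *Fdx1*, *Scarb1*, *Hsd17b7* and *Srd5a1* are spread over most types.

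The transcript for cholesterol uptake was not restricted to one gated cell type. *Scarb1*, the receptor for high-density lipoprotein (chromosome 5, 125277087 to 125341094 of GRCm38, as all positions here, minus strand), was measured at 36.1 and 50.1 CPM in granulosa, 31.2 and 32.2 in interstitial, 46.6 and 41.6 in mesothelial, 22.6 and 21.0 in germ and 6.96 and 29.0 in immune cells. Its log2 difference in granulosa cells was 0.86 ± 0.18 (SE), with an adjusted p of 0.0064 in edgeR's quasi-likelihood test, below the 2-fold limit. Mesothelial and granulosa cells, the gated types with the highest means, overlapped between libraries. Ungated cells with 3 or more UMIs of the endothelial list held more, at 279 and 171 CPM.

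*Star*, which delivers cholesterol to the inner mitochondrial membrane (chromosome 8, 25806555 to 25815982, plus strand), had its highest level in the surface layer. It gave 28 UMIs in 59 mesothelial-gated cells of replicate 1 and 24 UMIs in 106 of replicate 2, which is 43.5 and 24.3 CPM. Granulosa cells held 4.01 and 1.07 CPM, interstitial cells 0.601 and 1.06, germ cells 0.321 and 0.0478, and immune cells 0 UMIs in both libraries, which allows up to 20.9 and 14.5 CPM. The mesothelial libraries did not overlap with those of any other type. A *Star* UMI was found in 42.4% (95% exact binomial interval 29.6 to 55.9) and 19.8% (12.7 to 28.7) of mesothelial cells, and in 2.48% and 0.239% of the far deeper germ cells. After thinning the mesothelial shares were 5.08% and 6.60%, and those of germ cells 0%. The log2 fold change was 4.93 ± 0.61 (SE, n = 2) with an adjusted p of 0.000403. With a gate minimum of 1 UMI for every type, which gave 46 genes called higher in mesothelial cells in place of 1223, it was 3.28 with an adjusted p of 0.452.

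The largest share of *Star* transcripts in any single class came from cells that passed both the mesothelial and the granulosa gate. These 84 and 111 cells held 96 and 91 *Star* UMIs, or 51.5 and 38.1 CPM, and 43.1% of all *Star* UMIs of the kept cells. Their *Upk3b* level was 487 and 525 CPM, their *Wnt6* level 452 and 462 CPM, and their *Foxl2* level 23.1 and 37.3 CPM, against 329 and 350 CPM of *Foxl2* in granulosa-gated cells. Their median depth was 19131.5 and 19883 UMIs per cell, against 9728 and 8042.5 in the mesothelial gate alone, and whether doublets contribute to them was not tested. *Wnt6* was also found in 89.8% and 91.5% of the cells that passed the mesothelial gate alone. Counted as mesothelial, a choice made after the data were seen, they raised the count of members called there to 2, *Star* and *Scarb1*, and that of all genes from 1223 to 1640. *Hsd3b1* and *Hsd17b1* stayed at 3.22 and 9.22 CPM and at 1.07 and 0.838 CPM in them.

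**Figure D2:**
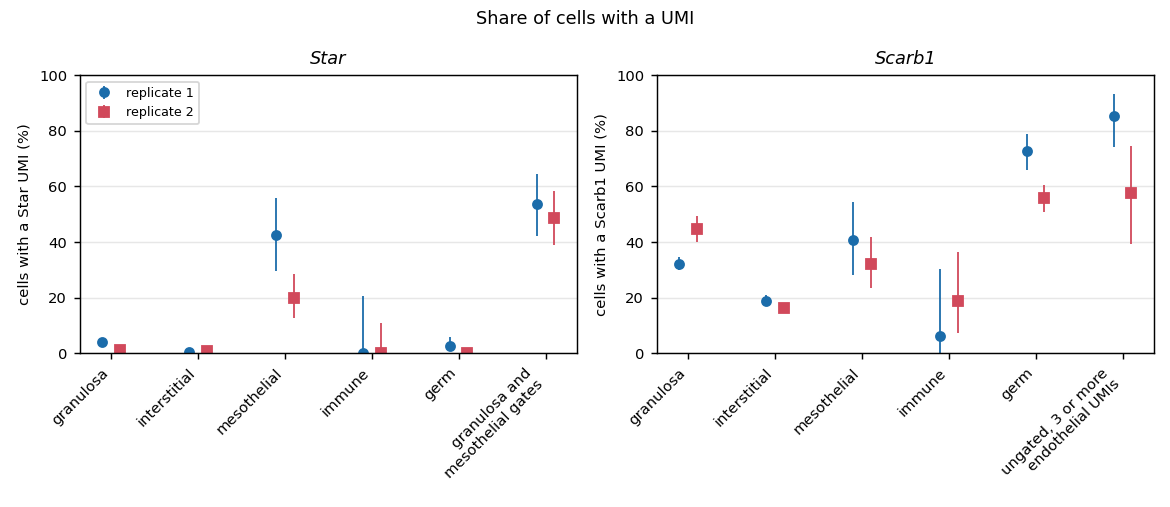
Share of cells with at least 1 UMI of *Star* (left) and *Scarb1* (right), in percent, by gated type and library, with exact 95% binomial intervals; the last position on the left is the cells of both the granulosa and mesothelial gates, and on the right the ungated cells with 3 or more endothelial UMIs. *Star* reached 42.4% and 19.8% of mesothelial cells and 53.6% and 48.6% of the cells of both gates, and *Scarb1* reached 72.8% and 55.9% of the deeper germ cells, or 2.97% and 4.09% after thinning.

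The first enzymatic step was close to the limit of detection. *Cyp11a1* (chromosome 9, 58006411 to 58027023, plus strand) gave 11 and 9 UMIs among all 3636 and 4371 kept cells. Granulosa cells held 1 UMI in each library, at 0.0542 and 0.153 CPM, in 1 of 1502 and 1 of 456 cells. Interstitial, mesothelial and germ cells held 0 UMIs, which allows up to 0.300 and 0.198 CPM in interstitial, 4.66 and 3.04 in mesothelial, and 0.192 and 0.143 in germ cells. It was too low to be tested in any type. Its annotated span overlaps *Gm17322* on the same strand, so reads of the pair cannot be fully told apart.

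The remaining *Cyp11a1* UMIs lay in few cells. The immune gate held 4 UMIs in 1 of 16 cells and 3 UMIs in 2 of 32 cells, at 27.8 (95% Poisson interval 7.59 to 71.3) and 14.5 (2.99 to 42.4) CPM. Those 3 cells carried 1, 0 and 2 UMIs of the lymphoid list and 0 of the macrophage and mast cell lists. Ungated cells held more, 10 of the 20 *Cyp11a1* UMIs (50%) in 3 cells of each library. In each library 1 of these cells held 3 UMIs with 0 UMIs of the immune, mast cell, macrophage and lymphoid lists, and another of replicate 1 held 1 UMI together with 162 UMIs of the mast cell list. The cell with 3 UMIs in replicate 1 also held a UMI of *Amh* or *Inhbb*, granulosa genes described below, and 1 UMI of a theca or Leydig list. That of replicate 2 held none of either. The granulosa-gated cell with a *Cyp11a1* UMI in each library held a UMI of *Amh* or *Inhbb* as well. With no filter on low counts *Cyp11a1* was called higher in immune cells, at a log2 fold change of 9.61 ± 1.22 (SE) and an adjusted p of 0.000126, a value that rests on these 3 cells. *Fdx1*, the electron carrier of this enzyme (chromosome 9, 51943306 to 51963556, minus strand), was by contrast found in all types. Its level was 105 and 95.1 CPM in granulosa, 146 and 92.2 in mesothelial, 89.9 and 84.3 in interstitial, 56.0 and 55.2 in germ and 27.8 and 53.2 in immune cells. Its log2 difference in granulosa cells was 0.69 ± 0.11 (SE, adjusted p = 0.0021), under 2-fold.

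*Hsd3b1*, which turns pregnenolone into progesterone and dehydroepiandrosterone into androstenedione, was concentrated in granulosa cells (chromosome 3, 98852194 to 98859794, minus strand). Granulosa cells held 1984 UMIs in replicate 1 and 409 in replicate 2, 107.6 and 62.4 CPM. Interstitial cells held 16 and 9 UMIs, 1.60 and 0.594 CPM, germ cells 5 and 4 UMIs, and mesothelial and immune cells 0. Of all *Hsd3b1* UMIs in kept cells, 92.5% lay in granulosa-gated cells, and the libraries of granulosa cells lay above those of every other type. A UMI was found in 33.2% and 17.3% of granulosa cells, or 12.8% and 7.02% after thinning, against 0.589% and 0.337% of interstitial cells, or 0.147% and 0.255% after thinning. The fitted log2 fold change of *Hsd3b1* was 7.44 ± 0.42 (SE, n = 2), a description with no p, since the gene entered the test through the granulosa cells. Mesothelial cells were at least 9.74-fold and 3.24-fold below the other gated cells, computed against 3 counts per library, since they held none.

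The mouse has several *Hsd3b* genes, and *Hsd3b6*, like *Hsd3b1* on the minus strand of chromosome 3, had the opposite pattern. It gave 378 and 559 UMIs in germ cells, 24.2 and 26.7 CPM, and 2 and 0 UMIs in granulosa cells. Its fitted log2 fold change was 7.50 ± 0.33 (SE) in germ cells and -7.30 ± 0.46 in granulosa cells. As it passed the filter on low counts through the germ cells, these folds are a description with no p. *Hsd3b2*, *Hsd3b3* and *Hsd3b7* gave at most 3 UMIs per gated type and library. Over the last 500 bases of their annotated transcripts, where these libraries are read, *Hsd3b1* shared 0 of 453 stretches of 50 bases with the other copies, and *Hsd3b6* 159 of 452 (35.2%), all with copies other than *Hsd3b1*. The counts of *Hsd3b6* are therefore less certain than those of *Hsd3b1*. The 150 bases before the RefSeq start site of each are shown because the pair differ in cell type, with capitals marking a match to the GATA motif (AGATAA, or TTATCT on the other strand), and *Hsd17b7*, a member found at similar levels in most types, is shown beside them:
Hsd3b1, chr3:98859795-98859944, minus strand: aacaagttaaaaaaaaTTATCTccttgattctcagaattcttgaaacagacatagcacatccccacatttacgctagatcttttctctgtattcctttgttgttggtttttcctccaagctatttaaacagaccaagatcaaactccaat
Hsd3b6, chr3:98814444-98814593, minus strand: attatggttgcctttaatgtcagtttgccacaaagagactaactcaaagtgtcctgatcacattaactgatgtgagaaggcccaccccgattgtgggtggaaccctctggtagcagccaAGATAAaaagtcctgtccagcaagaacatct
Hsd17b7, chr1:169969206-169969355, minus strand: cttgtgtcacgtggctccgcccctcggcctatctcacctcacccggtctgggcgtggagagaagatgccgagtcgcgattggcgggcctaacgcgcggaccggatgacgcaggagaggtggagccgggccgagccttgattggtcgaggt

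The windows are of GRCm38.p6. G and C made up 34% of the bases of *Hsd3b1*, 45.3% of *Hsd3b6* and 66.7% of *Hsd17b7*, where the median of 32851 windows was 54%. The GATA match began 134 bases before the start site of *Hsd3b1*, on the minus strand of the window, and 31 bases before that of *Hsd3b6*, on the plus strand. Among windows of 300 bases, 11.2% held the GATA motif, 4.72% the NR5A half-site AAGGTCA and 3.21% the cyclic AMP half-site TGACGTC, on either strand. The tables matched 6 of the 10 members with 9 windows, *Cyp11a1*, *Cyp19a1*, *Hsd3b1*, *Hsd17b7*, *Srd5a1* and *Fdx1*, and *Star*, *Cyp17a1*, *Hsd17b1* and *Scarb1* had none. The only match of the 3 motifs in these 9 windows of 300 bases was the GATA match of *Hsd3b1*.

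*Cyp17a1*, the enzyme that opens the route to androgens and a marker of theca cells in the adult (chromosome 19, 46667165 to 46673172, minus strand), was rare and seen only in granulosa cells among the gated types. It gave 19 UMIs in 18 of 1502 cells of replicate 1 and 12 UMIs in 12 of 456 cells of replicate 2, 1.03 and 1.83 CPM. Interstitial, mesothelial, immune and germ cells all held 0 UMIs, which allows up to 0.221% and 0.126% of interstitial cells with a UMI. Ungated cells held 2 and 4 UMIs, and cells of several gates 1 in each library. The level in granulosa cells was at least 9.06-fold and 22.7-fold above the other gated cells, computed against 3 counts per library. After thinning, 0.0666% and 0.439% of granulosa cells kept a UMI, and the gene was no longer tested.

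The 17β-hydroxysteroid dehydrogenases of the set were unlike each other. *Hsd17b1*, which turns oestrone into oestradiol (chromosome 11, 101078411 to 101080527, plus strand), gave 1091 and 247 UMIs in granulosa cells, 59.2 and 37.7 CPM. The other types together held 8 and 5 UMIs, 5 of them in germ cells of each library. A UMI was found in 33.7% and 25.7% of granulosa cells and in 2.48% and 1.19% of germ cells, or 9.19% and 6.80% against 0% after thinning. Its fitted log2 fold change was 8.00 ± 0.39 (SE, n = 2), and 91.5% of its UMIs lay in granulosa-gated cells. *Hsd17b7*, which acts in cholesterol synthesis as well as on oestrone (chromosome 1, 169949535 to 169969241, minus strand), was found at 9.38 and 6.71 CPM in granulosa, 8.61 and 7.20 in interstitial, 10.9 and 3.04 in mesothelial, 14.8 and 12.6 in germ and 13.9 and 0 in immune cells. Germ cells lay above granulosa and interstitial cells in both libraries, by 0.77 ± 0.23 on the log2 scale against all other gated cells (adjusted p = 0.0245), which is under 2-fold.

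*Cyp19a1*, the aromatase (chromosome 9, 54165937 to 54268110, minus strand), was low, with most of its UMIs in granulosa cells. These held 71 UMIs in 62 cells of replicate 1 and 11 UMIs in 9 cells of replicate 2, 3.85 and 1.68 CPM. Germ cells held 9 and 7 UMIs, 0.577 and 0.335 CPM, and interstitial, mesothelial and immune cells 0. The share of cells with a UMI was 4.13% and 1.97% in granulosa and 4.46% and 1.43% in the deeper germ cells, and after thinning 0.666% and 0% against 0%. Interstitial cells, at median depths of 6551 and 5076 UMIs, had a *Cyp19a1* UMI in 0 of 1359 and 0 of 2375 cells, which allows up to 0.221% and 0.126%. The fitted log2 fold change was 3.63 ± 0.57 (SE, n = 2). Interstitial cells lay at least 7.65-fold and 3.17-fold below the other gated cells, computed against 3 counts per library. *Srd5a1*, steroid 5α-reductase (chromosome 13, 69573449 to 69611442, minus strand), was found at 1.63 and 1.22 CPM in granulosa, 1.90 and 1.85 in interstitial, 1.55 and 2.03 in mesothelial and 1.73 and 1.39 in germ cells. Neighbours in the order of these levels overlapped between libraries, and its log2 differences in those 4 types were between -0.12 and 0.50, none of them called.

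The lower calls were made against a reference that holds the granulosa cells. In interstitial cells *Cyp19a1*, *Hsd3b1* and *Hsd17b1* were called lower, where 27% of all genes were, and in germ cells *Star*, *Cyp17a1*, *Hsd3b1* and *Hsd17b1*, where 32.7% were. In mesothelial cells *Hsd3b1* alone was called lower, against 12.4%, and in granulosa cells 0 of 10, against 25.1%. All of these except *Hsd3b1* in interstitial cells passed the filter through the reference alone. With the other types weighted equally, so that types at 0 UMIs counted as much as granulosa cells, only *Hsd17b1* in interstitial cells kept its call. The log2 difference of *Hsd3b1* in interstitial cells then turned from -4.91 to 2.05 (adjusted p = 0.728). The calls of *Cyp19a1* in interstitial, *Hsd3b1* in mesothelial and *Star*, *Hsd3b1* and *Hsd17b1* in germ cells were lost, at adjusted p between 0.0557 and 0.999999, and *Cyp17a1* in germ cells gave no value.

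Granulosa cells were then divided by *Amh* and *Inhbb*, genes that granulosa cells switch on when follicles begin to grow. A UMI of either was found in 790 of 1502 and 182 of 456 granulosa-gated cells. *Hsd3b1* was at 157 and 123 CPM in these cells and at 37.0 and 7.02 in the others. *Hsd17b1* was at 82.3 and 67.0 CPM against 26.0 and 10.8. *Cyp19a1* was at 5.25 and 2.23 CPM against 1.85 and 1.17, and *Hsd17b7* at 12.7 and 7.02 against 4.62 and 6.43. For each of these 4 genes the positive cells were higher within both libraries, and for *Hsd3b1* and *Hsd17b1* the groups did not overlap across libraries. *Fdx1* was at 106 and 104 CPM against 104 and 87.2, *Scarb1* at 36.8 and 49.5 against 35.1 and 50.6, and *Cyp17a1* at 0.921 and 1.91 against 1.19 and 1.75. *Star* was at 4.70 and 1.91 CPM against 3.04 and 0.293, from 51 and 6 UMIs against 23 and 1.

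In the fit without pairing, 0 of the 10 members were called higher in the *Amh*- or *Inhbb*-positive cells, where 0.605% of 12057 genes were and 7 members were tested. At an unadjusted p under 0.05, 3 members differed, *Hsd3b1*, *Hsd17b1* and *Hsd17b7*, where 1729 of the 12057 genes did. The log2 fold change was 2.60 ± 0.59 (SE, adjusted p = 0.139) for *Hsd3b1* and 1.97 ± 0.35 (adjusted p = 0.0815) for *Hsd17b1*. Both groups of cells come from the same library, and with the library as a block 4 members were called: *Hsd3b1* at 2.56 ± 0.17 (adjusted p = 2.47e-13), *Hsd17b1* at 1.93 ± 0.14 (adjusted p = 1.17e-12), *Hsd17b7* at 1.06 ± 0.26 (adjusted p = 0.00283) and *Cyp19a1* at 1.39 ± 0.41. *Cyp19a1* reached the limit of the filter on low counts in the other cells of replicate 1 (14 UMIs) but not of replicate 2 (4 UMIs). It therefore entered the test through the positive cells, and its call is a description with no p. In replicate 2 alone the log2 fold change was 0.69 for *Cyp19a1* and 0.13 for *Hsd17b7*, against 1.44 and 1.46 in replicate 1 alone, so that the calls of these 2 genes rest on replicate 1. It was 4.03 and 2.12 for *Hsd3b1* and 2.58 and 1.69 for *Hsd17b1* in replicates 2 and 1. The SE and adjusted p of the block fit do not measure how far these folds differ between the n = 2 libraries. The block called 464 genes higher in place of 73. Positive cells were deeper, with medians of 11749 and 15147.5 UMIs against 8719.5 and 10158. Thinned to 2000 UMIs without the block, *Hsd3b1* differed by 2.29 ± 0.45 and *Hsd17b1* by 2.18 ± 0.42 on the log2 scale (adjusted p = 0.0569 and 0.0544).

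The levels also followed the number of *Amh* and *Inhbb* UMIs per cell. *Hsd3b1* was at 37.0, 57.7, 120 and 277 CPM in cells with 0, 1, 2 to 4 and 5 or more such UMIs in replicate 1, and at 7.02, 22.5, 78.7 and 294 CPM in replicate 2. *Hsd17b1* was at 26.0, 45.3, 68.1 and 128 CPM, and at 10.8, 32.2, 52.8 and 125 CPM. Both libraries kept the same order, and they came closest to each other in the cells with 5 or more UMIs. *Cyp19a1* was at 10.4 and 4.15 CPM in those cells, its highest level in either library, from 40 and 4 UMIs. In replicate 2 its bins with 0, 1 and 2 to 4 such UMIs held 4, 1 and 2 *Cyp19a1* UMIs, so its order there rests on few counts. *Fdx1* stayed between 87.2 and 113 CPM and *Scarb1* between 32.9 and 53.9 CPM over all bins. Median depth was 13994 and 17773 UMIs per cell in the highest bin against 8719.5 and 10158 in the lowest, and no test was made of the bins.

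**Figure D3:**
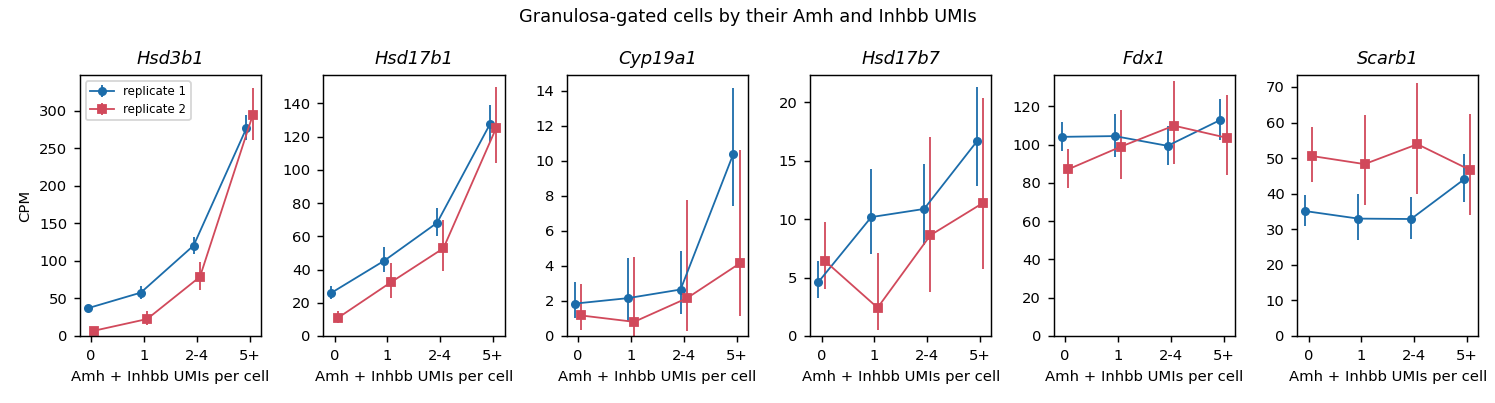
Level of 6 members in granulosa-gated cells (CPM, vertical axes from 0) by the summed *Amh* and *Inhbb* UMIs of the cell, with a line for each library and bars for the exact 95% Poisson interval. *Hsd3b1* climbs from 37.0 to 277 and from 7.02 to 294 CPM and *Hsd17b1* from 26.0 to 128 and from 10.8 to 125 CPM, while *Fdx1* and *Scarb1* stay level.

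Cells with several of the rate-setting genes were few. Of *Star*, *Cyp11a1*, *Cyp17a1* and *Cyp19a1*, at least 2 were seen in 12 cells of replicate 1, 10 of them granulosa-gated, and in 1 granulosa-gated cell of replicate 2. No cell held 3 of the 4, in 3636 and 4371 kept cells. *Cyp11a1* was seen in only 6 cells of each library and *Cyp17a1* in 21 and 17, so few joint cells could be seen. The number expected from these low shares was not computed. The pair seen most often was *Star* with *Cyp19a1*, in 7 cells of replicate 1. Among thinned *Amh*- or *Inhbb*-positive granulosa cells, *Hsd17b1* was found in 17.4% and 17.2% of the cells with an *Hsd3b1* UMI and in 12.4% and 15.7% of those without.

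The rest of the pathway was described by 5 further lists and a check list of adrenal markers. In granulosa cells 3 of 5 electron supply genes were called higher, where 19.8% of all genes were, namely *Cyb5a*, a partner of CYP17A1, at 811 and 880 CPM against 152 and 167 in interstitial cells (log2 fold change 2.34), *Fdxr*, the ferredoxin reductase (2.22), and *Cyb5r3* (1.14). *Cyb5a* was also called higher in mesothelial cells (1.19). The electron supply list had a median log2 difference of 1.14 in granulosa cells, against -0.03 over all genes tested. Of 12 cholesterol supply genes 0 were called lower in granulosa cells and 5 higher, among them *Soat1*, which stores cholesterol as esters (1.98), *Tspo* (1.84) and *Abca1*, which exports cholesterol (1.73), with a median of 0.59. *Soat1* was higher still in mesothelial cells, at 446 and 365 CPM against 192 and 195 in granulosa cells. *Tspo* was also called higher in mesothelial (2.03) and immune cells (1.84), and *Abca1* in immune cells (3.26). Both were called lower in germ cells, and *Abca1* also in mesothelial cells.

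Of 10 further synthesis enzymes 5 were tested in granulosa cells. *Akr1c14*, a 3α-hydroxysteroid dehydrogenase, stood at 208 and 123 CPM in granulosa and at most at 11.1 CPM in the interstitial, mesothelial, immune and germ cells (log2 fold change 5.86 ± 0.30, SE). *Hsd17b3*, which makes testosterone from androstenedione, gave 22 and 27 UMIs in granulosa and 4 and 8 in interstitial cells (3.81 ± 0.75). It passed the filter on low counts through the granulosa cells alone, so its fold is a description with no p. *Hsd3b6* was the only one lower in granulosa cells, a description only, as stated above. The list had a median of 0.40. In interstitial cells *Srd5a3* was called higher (1.33) and *Akr1c14* lower, and *Hsd3b6* was again lower as a description only.

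Genes of steroid breakdown and inactivation moved both ways. The list also held *Cyp26b1*, which acts on retinoic acid, and the counts and medians below include it. Of 11 genes 9 were tested in granulosa cells, and 3 were called higher, where 19.8% of all genes were, *Akr1c18* (4.87), which inactivates progesterone, *Cyp1b1* (2.94), which hydroxylates oestrogens, and *Hsd17b11* (1.38). *Akr1c18* passed the filter on low counts in this comparison and in no other, so its call is a description only. The 4 called lower, against 25.1% of genes, were *Hsd11b1* (-6.21), which regenerates glucocorticoids, *Cyp26b1* (-1.60), *Hsd17b2* (-1.54) and *Hsd11b2* (-1.36), and the list had a median of -0.60. In interstitial cells 4 of 8 tested were called higher, against 18.6% of genes, *Hsd11b2* (4.32), which inactivates glucocorticoids, the retinoic acid hydroxylase *Cyp26b1* (3.85), *Hsd11b1* (1.87) and *Hsd17b11* (1.28), and 1 lower, with a median of 0.77 against -0.12 over all genes. *Hsd11b2* stood at 70.3 and 63.2 CPM in interstitial and at 10.5 and 7.48 CPM in granulosa cells. Some of these genes were called higher in further types, *Hsd17b11* in mesothelial (1.30) and immune cells (1.91), *Hsd11b1* in immune cells (3.15) and *Hsd17b2* in mesothelial (3.73) and germ cells (1.74).

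**Figure D4:**
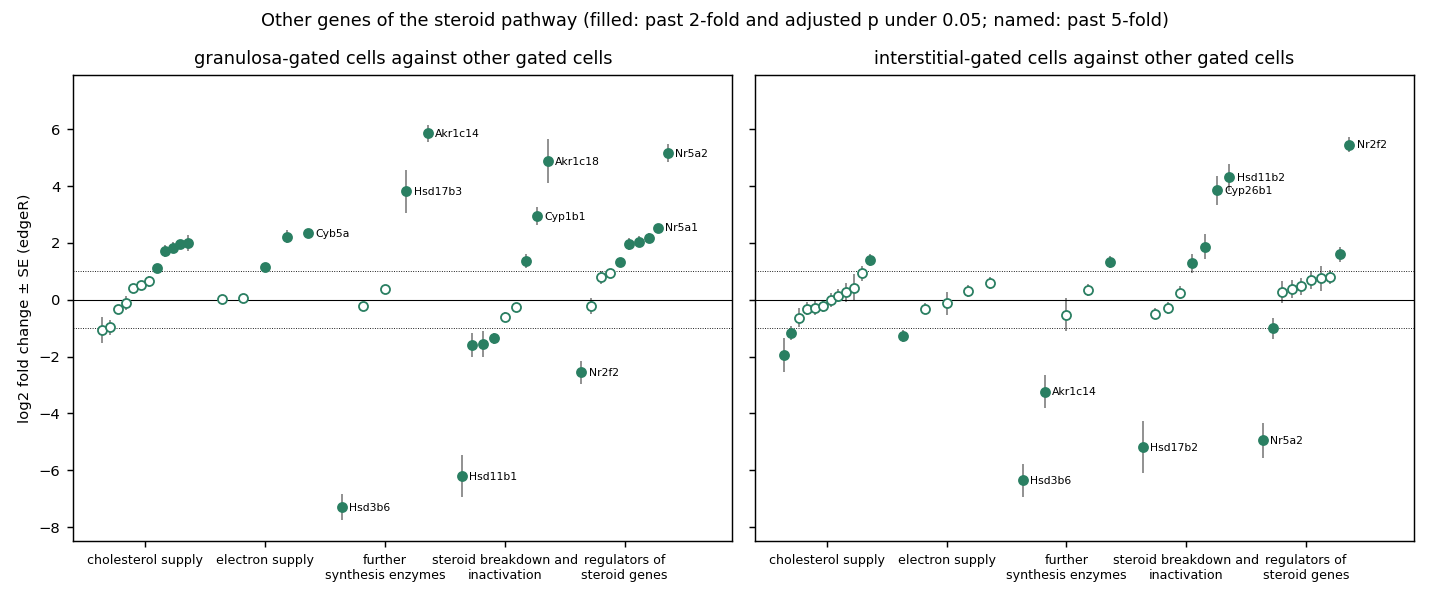
Log2 fold change (vertical axis, with SE bars) of the tested genes of 5 pathway lists in granulosa-gated (left) and interstitial-gated cells (right) against the other gated cells; filled points are past 2-fold at an adjusted p under 0.05, names are given past 5-fold, and the gate gene *Foxl2* is left out. *Akr1c14* (5.86) and *Nr5a2* (5.16) stand highest in granulosa and *Nr2f2* (5.46) in interstitial cells.

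Among 13 regulators of steroid genes 11 were tested and 7 were called higher in granulosa cells, where 19.8% of all genes were, and 1 of the 7, *Foxl2*, was used by the gate. *Nr2f2* alone was called lower in granulosa cells (-2.56), where 25.1% of genes were. In germ cells, the largest part of the granulosa reference, 9 of the 11 were called lower, where 32.7% of genes were. The nuclear receptor *Nr5a2* stood at 63.9 and 56.2 CPM in granulosa and at 1.10 and 0.396 in interstitial cells (log2 fold change 5.16 ± 0.32, SE). *Nr5a1*, steroidogenic factor 1, stood at 87.6 and 71.9 CPM in granulosa, 35.7 and 34.3 in interstitial and 43.5 and 52.7 in mesothelial cells (2.54 ± 0.14). *Gata6* (2.19) and *Wt1* (2.04) followed, and both were also called higher in mesothelial cells (1.91 and 1.75) and lower in immune and germ cells. In interstitial cells *Nr2f2* (5.46 ± 0.27) and *Gata4* (1.59) were called higher, and *Gata4* was also called higher in granulosa cells (1.32). *Nr5a2* (-4.95) and *Nr0b1* (-1.01) were called lower in interstitial cells. *Nr5a2* was also the only listed gene called higher in *Amh*- or *Inhbb*-positive granulosa cells, at 90.7 and 94.8 CPM against 25.5 and 20.8 in the others (1.99 ± 0.15, adjusted p = 0.0178). The receptors for gonadotrophins were low, with 22 and 2 UMIs of *Fshr* and 10 and 2 of *Lhcgr* in granulosa cells, a pair chosen after their values were seen.

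Adrenal cells would carry steroid genes of their own, so their markers were checked. *Cyp11b1*, *Cyp11b2* and *Cyp21a1*, the enzymes that define the adrenal cortex, gave 0 UMIs in every gated type of both libraries. The corticotropin receptor *Mc2r* gave 26 and 13 UMIs in interstitial cells and 0 in the other gated types. Ungated cells held 16 and 4 UMIs of it, at 5.60 and 1.47 CPM against 2.60 and 0.858 in interstitial cells. Of the 6 markers listed, 2 were tested in granulosa cells, and *Akr1b7* (1.67) was called higher, where 19.8% of all genes were. In interstitial cells 3 were tested and *Mc2r* was called higher, where 18.6% of genes were. *Mc2r* passed the filter on low counts through the interstitial cells alone, so its call is a description only.

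The genes whose profiles over the 5 gated types and the *Amh*- or *Inhbb*-positive granulosa cells lay nearest to each member were sought among 13632 genes, over 6 points that share libraries. For *Star* they were *Capn6*, *Rmst* and *Podxl* (Euclidean distances of the normalized profiles 0.0336, 0.0357 and 0.0440). For *Hsd3b1* they were *Gm12167*, *Ctrb1* and *Dok7* (0.00882, 0.0141 and 0.0241), and for *Hsd17b1* *Nr5a2*, *Sel1l3* and *Kazald1* (0.0228, 0.0319 and 0.0332). *Fdx1* was nearest to *AI597479*, *Btbd6* and *Dgcr2*, *Scarb1* to *Nek9*, *AI597479* and *Rabggtb*, *Hsd17b7* to *Umps*, *Glmn* and *Trappc5*, and *Srd5a1* to *AW554918*, *Fntb* and *Phf6*, at distances between 0.0135 and 0.0432. *Cyp11a1*, *Cyp17a1* and *Cyp19a1* had fewer than 100 UMIs in gated cells and were left out.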

How the data were processed

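The authors deposited UMI counts per gene and cell, not normalized, for barcodes called as cells by Cell Ranger 3.0.2, with GRCm38 named in the submitters' processing notes. The study's methods name version 3 of the capture kit and the labels version 2. Cells were kept from 500 genes upwards and up to 10% mitochondrial UMIs, and doublets (102 and 93 cells) were removed with Scrublet in scanpy 1.11.5 at the automatic score threshold of replicate 1 for both libraries. Gates required 6 granulosa, 12 interstitial, 3 mesothelial, 1 immune or 12 germ cell marker UMIs, set from the markers alone. UMIs were summed per library and type and fitted with edgeR 4.0.16 (filterByExpr, TMM, quasi-likelihood test, Benjamini-Hochberg adjustment over all genes tested), with the n = 2 libraries as replicates. Each type and its reference come from the same library, so samples are paired by design; the correlation of their deviations from the group means was 0.586 for *Amh*- or *Inhbb*-positive against other granulosa cells and 0.0592 to 0.215 elsewhere. On simulated data with 200 genes changed 4-fold the test recovered 100% in granulosa and 55% in immune cells, of 16472 genes each. The changed genes were drawn only from those with at least 200 UMIs in the gated cells, with a common dispersion and no library effect. *Star*, *Cyp11a1*, *Cyp17a1*, *Cyp19a1* and *Srd5a1* lay below that count, so recovery at their levels was not measured. Intervals are exact, at 95%, and cover counting error only. A count of 0 was given an upper limit of 3 counts. Genes named from the pathway lists are the up to 4 of largest fold per list among those called in granulosa or interstitial cells, with levels of others given only as context; 1 gene that the rule names is not reported here. The members and the lists were chosen with earlier results of these data known. Positions are from GENCODE vM21 and promoter windows from RefSeq.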

Additional observations from a re-analysis of the deposited data

Results flagged for a closer look

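The levels below come from cells outside the comparisons, and each exceeded the level in every gated type of its library. Ungated cells with 3 or more UMIs of the endothelial list (62 and 33 cells) held *Scarb1* at 279 and 171 CPM, from 273 and 59 UMIs, against at most 46.6 and 50.1 CPM in a gated type. A *Scarb1* UMI was found in 85.5% and 57.6% of them, at median depths of 13145.5 and 6205 UMIs. Ungated cells with 3 or more perivascular UMIs (66 and 65 cells) held *Scarb1* at 54.6 and 82.1 CPM from 22 and 29 UMIs, in 9.09% and 10.8% of the cells. Neither list marks its cell type alone. *Acta2* of the perivascular list was found in 71.2% and 37.1% of interstitial-gated cells. *Kdr* of the endothelial list was found in 66.1% and 49.1% of mesothelial-gated cells. Cells of both the granulosa and mesothelial gates held *Star* at 51.5 and 38.1 CPM and *Scarb1* at 53.7 and 57.4 CPM. *Srd5a1* stood at 3.22 and 2.10 CPM in them, from 6 and 5 UMIs. None of these levels was tested.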

How the results depend on the processing

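Each result was recomputed under 12 other settings, and under 1 chosen after the data were seen. Of 156 values of the 13 member calls, 146 were counted as kept, 9 lost the call and 1 turned, and 13 more could not be computed because a gene was not tested. Kept means the same direction and call. The 13 values without replicate 1 and the 13 without replicate 2 had no test, and were counted as kept on a change past 2-fold alone. Most of the 13 calls passed the filter on low counts through 1 side alone, as stated above, so this count is a description of the settings only. The 1 that turned was *Hsd3b1* in interstitial cells at a log2 difference of 2.05 with the other types weighted equally. That setting gave 6 of the 10 changes, and by its construction it counts types at 0 UMIs like the others. Without each replicate in turn, folds of the remaining library with no test, 4 to 5 members were past 2-fold in granulosa cells, 1 in immune cells (*Cyp11a1*) and 3 to 4 in *Amh*- or *Inhbb*-positive cells. Thinning left 2 members higher in granulosa cells, *Hsd3b1* and *Hsd17b1*. A gate minimum of 1 UMI called *Star*, *Hsd3b1* and *Hsd17b1* there, the unfiltered fit added *Star*, and equal weighting dropped *Cyp17a1*. The log2 difference of *Star* in granulosa cells, 1.26 (adjusted p = 0.0917) as reported, was 2.71 (adjusted p = 0.00598) with the minimum of 1 UMI, 1.19 (adjusted p = 0.0113) unfiltered, -0.50 with clusters and -0.36 with the cells of both gates counted as mesothelial. In mesothelial cells the count was 0 with a gate minimum of 1 UMI and 2 with the cells of both gates, where 46 and 1640 of all genes were called higher in place of 1223. In immune cells it was 1, *Cyp11a1*, with DESeq2, with no filter on low counts and with clusters in place of gates. In *Amh*- or *Inhbb*-positive cells it was 1 with DESeq2 (*Hsd17b1*) and with a gate minimum of 1 UMI (*Hsd3b1*), 2 with no filter and 4 with the replicate block. The block changed no other member call. Scaling by library size alone shifted the median of all genes by more than 0.1 on the log2 scale, from -0.12 to -0.32 in interstitial, -0.19 to -0.38 in mesothelial, -0.03 to -0.19 in granulosa and -0.88 to -1.01 in immune cells.

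Over all genes, thinning lowered the number called higher from 3084 to 1513 in granulosa, 2863 to 1462 in interstitial, 4549 to 2486 in germ, 1223 to 309 in mesothelial and 1140 to 308 in immune cells, and from 73 to 44 in *Amh*- or *Inhbb*-positive cells. A gate minimum of 1 UMI left 46 in mesothelial cells. In immune cells DESeq2 called 1728 and the doubled minimum 605. In *Amh*- or *Inhbb*-positive cells DESeq2 called 169, the unfiltered fit 428 and the block 464. Folds of a single library, with no test, put 2178 to 2444 genes past 2-fold in mesothelial, 2250 to 2403 in immune and 1002 to 1113 in *Amh*- or *Inhbb*-positive cells. The cause of these changes was not tested. The 16 and 32 immune cells and 59 and 106 mesothelial cells set wide limits on members at 0 UMIs there.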
